A study of Mus musculus with 14 samples.

Results

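The genes described here are 50 genes of mitosis and the G2/M transition, measured by mRNA sequencing of whole mouse ears in 4 groups of genotype and treatment. They were chosen by name, from cyclin B and CDK1, the spindle, the kinetochore, condensin and cytokinesis. The rule that picks them reads no measured value, though the set was proposed when earlier results of these data were known. All 50 were among the 24035 genes with values, and all 50 passed the filter of at least 1 TPM in at least 3 samples that left 14693 genes for testing. TPM is a measure of transcript abundance in which a gene's reads are divided by its length and every sample is scaled to one total. The number of reads behind a TPM value cannot be read from it, so sequencing depth is unknown and no counting error can be given.

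The 14 samples were 4 ears of LC-DTA mice after croton oil, 3 of LC-DTA mice after vehicle, 4 of LC-DTR mice after croton oil and 3 of LC-DTR mice after vehicle. Langerhans cells are dendritic cells that live in the epidermis, and mice of either genotype had lost them. LC-DTA mice lack them long term. LC-DTR mice had received diphtheria toxin (DT) 3 days before and so had lost them recently. Every LC-DTR sample, vehicle included, carries that treatment, and no DT time is given for LC-DTA samples. Genotype, toxin treatment and duration of loss therefore cannot be told apart here. Label numbers also separate the genotypes, at 10575 to 10797 in LC-DTA and 10825 to 11098 in LC-DTR samples, and what they stand for is not known here. In published lines of these names, regulatory sequences of the langerin gene drive the toxin subunit or the toxin receptor, and the labels used here do not name the promoter. Some dermal dendritic cells also express langerin, and whether any were lost in these ears was not tested. Each ear was painted on its 2 sides with 20 µl of acetone and olive oil at 4 to 1, alone as vehicle or with 1% croton oil, an irritant rich in phorbol esters, and was taken after 6 h. No sample with Langerhans cells left in place and no unpainted ear was analysed here, and whether each sample is a different animal is not stated in the labels. The p-values therefore measure the spread between these samples, which may be technical.

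A cell enters mitosis when CDK1 bound to cyclin B becomes active. Chromosomes are then condensed, attached by their kinetochores to spindle microtubules and held by a checkpoint until the anaphase promoting complex releases them, after which the cell divides by cytokinesis. Most of these genes are transcribed in a burst late in the cell cycle and are low in resting cells, so their RNA is widely used as a readout of dividing cells. In adult skin those are mainly basal keratinocytes, cells of the hair follicle and sebaceous gland, and some immune and stromal cells. The promoters of such genes often hold a CHR element (cell cycle genes homology region), which binds the DREAM and B-MYB-MuvB complexes, beside CCAAT boxes, which bind NF-Y.

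Promoter windows of RefSeq (build GRCm38.p6), 300 bases long and reaching from 250 bases before a gene's start to 50 after it, were found for 42 of the 50 genes, as 44 windows. They were read for TTTGAA or TTTAAA, which are forms of the CHR core, and for CCAAT, on both strands, with overlapping matches counted each. TTTGAA or TTTAAA stood in 36 of the 44 windows (81.8%), against 27.6% of all 32851 windows of that length. CCAAT stood in 34 (77.3%), against 37.4% of all windows, and at least 2 copies in 23 (52.3%), against 11.7%. Both kinds stood together in 31 of the 44 windows (70.5%), against 10.7% of all. A match is a run of letters and was not shown to be a bound site. Aurkb, Ccna2, Dlgap5, Foxm1, Kif20a, Pbk, Smc4 and Tpx2 were not among the windows read.

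The stretches below run from 120 bases before the start to 19 after it, with the start itself at 0, and matches on either strand are in capitals. Cdk1, Ccnb1 and Ccnb2 are shown as the core of the mitotic kinase, Top2a as a gene that moved in opposite directions in the genotypes, and Kif11 as a typical spindle gene. Ttk is shown because it holds both motifs and was not called after croton oil, and Pttg1 and Nusap1 because neither motif was in their windows. Their positions are chr10:69352893-69353032 (minus strand), chr13:100786467-100786606 (minus strand), chr9:70421535-70421674 (minus strand), chr11:99024170-99024309 (minus strand), chr19:37376262-37376401 (plus strand), chr9:83834569-83834708 (plus strand), chr11:43425962-43426101 (minus strand) and chr2:119618178-119618317 (plus strand). In GENCODE M21 the Pttg1 gene begins at 43426251, upstream of the RefSeq start used for its stretch.
Cdk1: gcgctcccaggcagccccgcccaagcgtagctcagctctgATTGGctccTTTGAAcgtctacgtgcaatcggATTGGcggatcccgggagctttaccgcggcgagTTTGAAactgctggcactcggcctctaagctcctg
Ccnb1: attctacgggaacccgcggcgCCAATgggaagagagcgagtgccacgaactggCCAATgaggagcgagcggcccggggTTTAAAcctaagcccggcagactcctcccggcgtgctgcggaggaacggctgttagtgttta
Ccnb2: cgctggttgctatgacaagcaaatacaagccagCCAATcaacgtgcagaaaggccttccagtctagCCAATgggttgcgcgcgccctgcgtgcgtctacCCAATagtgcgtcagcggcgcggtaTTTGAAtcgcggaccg
Top2a: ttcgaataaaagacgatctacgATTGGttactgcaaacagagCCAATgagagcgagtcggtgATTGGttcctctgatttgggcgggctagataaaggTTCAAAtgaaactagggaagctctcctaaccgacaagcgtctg
Kif11: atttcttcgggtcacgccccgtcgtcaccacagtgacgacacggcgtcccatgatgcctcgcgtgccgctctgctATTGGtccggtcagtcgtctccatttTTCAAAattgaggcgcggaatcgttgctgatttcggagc
Ttk: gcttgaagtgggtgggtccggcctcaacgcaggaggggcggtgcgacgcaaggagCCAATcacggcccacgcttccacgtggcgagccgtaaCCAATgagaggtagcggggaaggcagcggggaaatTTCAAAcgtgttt
Pttg1: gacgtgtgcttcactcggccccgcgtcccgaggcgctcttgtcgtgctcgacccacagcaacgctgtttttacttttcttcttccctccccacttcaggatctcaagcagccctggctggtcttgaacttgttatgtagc
Nusap1: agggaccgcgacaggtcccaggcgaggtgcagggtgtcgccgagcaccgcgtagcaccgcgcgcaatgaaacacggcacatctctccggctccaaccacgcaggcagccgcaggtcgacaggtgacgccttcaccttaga

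In the Ccnb2 stretch 3 CCAAT boxes stand before a TTTGAA near the start, and in Top2a 3 CCAAT boxes, 2 of them as ATTGG on the strand shown, stand before a TTCAAA, which is TTTGAA on the other strand. The 34 genes with TTTGAA or TTTAAA in a window and the 8 without had close medians in the comparisons that follow. For croton oil against vehicle in LC-DTR ears these were -1.02 and -0.87 on the log2(TPM + 1) scale, and for LC-DTA against LC-DTR after croton oil 1.24 and 1.13. Among the 8 without a match were Nusap1, with one of the larger falls in LC-DTR ears, and Pttg1, with one of the smallest differences in both comparisons. Between the genotypes after croton oil Nusap1 was at 1.21, the median of the 50.

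In a principal component analysis of all tested genes, the first component (50.5%) followed treatment and the second (27.6%) genotype. Within the LC-DTR croton oil group the first component was -5.26 for sample 2, -8.06 for sample 3, -28.5 for sample 1 and -28.6 for sample 4. On the second, LC-DTR vehicle sample 3 was at 5.85, against -10.1 and -19.6 for samples 1 and 2 of its group. Cd207, the langerin gene, did not exceed 1.88 TPM in any of the samples. One library stood apart for the genes described here. LC-DTR vehicle sample 3 was the highest of its 3 samples for 49 of the 50 genes, at a median of 2.06 times the mean of samples 1 and 2, with the lowest ratio at 1.03 (Pttg1) and the highest at 2.93 (Ndc80). Over all tested genes that ratio had a median of 0.980. In the same sample the summed TPM of 8 fibroblast markers was 5213, against 3197 and 2312 in samples 1 and 2, and of 21 hair follicle markers 114, against 90.4 and 97.8. Their part in the result was not tested. For the 50 genes, the counts of comparisons that use its group are given with and without it below, as are genes that lose their call and some that move most. The fitted model takes its estimate of spread from all 4 groups, so this sample also enters the p-values of the other comparisons. For those, only a fit of the compared groups alone leaves it out.

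LC-DTR ears after croton oil held the least RNA of these genes. The group had the lowest mean of the 4 groups for all 50 genes. Summed over the 50, LC-DTA croton oil samples held 784, 672, 697 and 676 TPM and LC-DTA vehicle samples 754, 741 and 623 TPM. LC-DTR croton oil samples held 287, 346, 356 and 257 TPM, against 474, 520 and 920 TPM in LC-DTR vehicle samples. The LC-DTR croton oil values lay below those of every other sample, while the LC-DTA groups overlapped. The ratio of mean sums, croton oil over vehicle, was 1.00 in LC-DTA and 0.488 in LC-DTR ears (0.627 without LC-DTR vehicle sample 3), and LC-DTA over LC-DTR after croton oil it was 2.27. In whole tissue, fewer dividing cells and less of these RNAs per cell cannot be told apart. Genes differed widely in level, with a lowest value of 0.426 TPM for Bub1 in LC-DTR croton oil sample 4 and a highest of 47.8 TPM for Smc4 in LC-DTR vehicle sample 3, and 47 of the 50 reached 1 TPM in every sample.

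**Figure D1:**
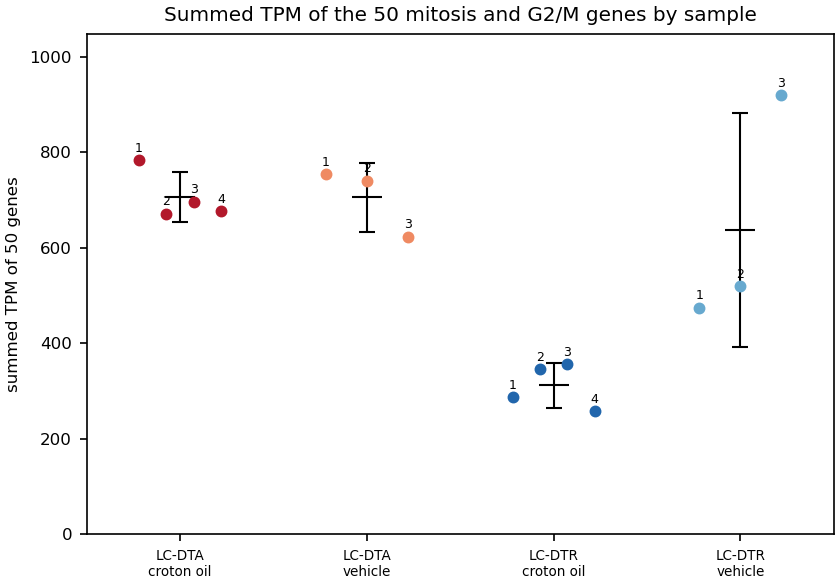
Summed TPM of the 50 genes in each sample (points, numbered by sample), with the mean and SD of each group (black bar and whiskers) for LC-DTA croton oil, LC-DTA vehicle, LC-DTR croton oil and LC-DTR vehicle ears. The 4 LC-DTR croton oil samples lie between 257 and 356 TPM, and LC-DTR vehicle sample 3, at 920 TPM, is the highest of all.

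The genes moved together from sample to sample within a group. LC-DTR vehicle sample 3 was the highest of its group for 49 genes, LC-DTA vehicle sample 3 the lowest of its group for 48, and LC-DTA croton oil sample 1 the highest for 34. LC-DTR croton oil samples 2 and 3 lay above samples 1 and 4 for 42 genes. The 50 genes are thus not 50 separate measurements of a group.

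**Figure D2:**
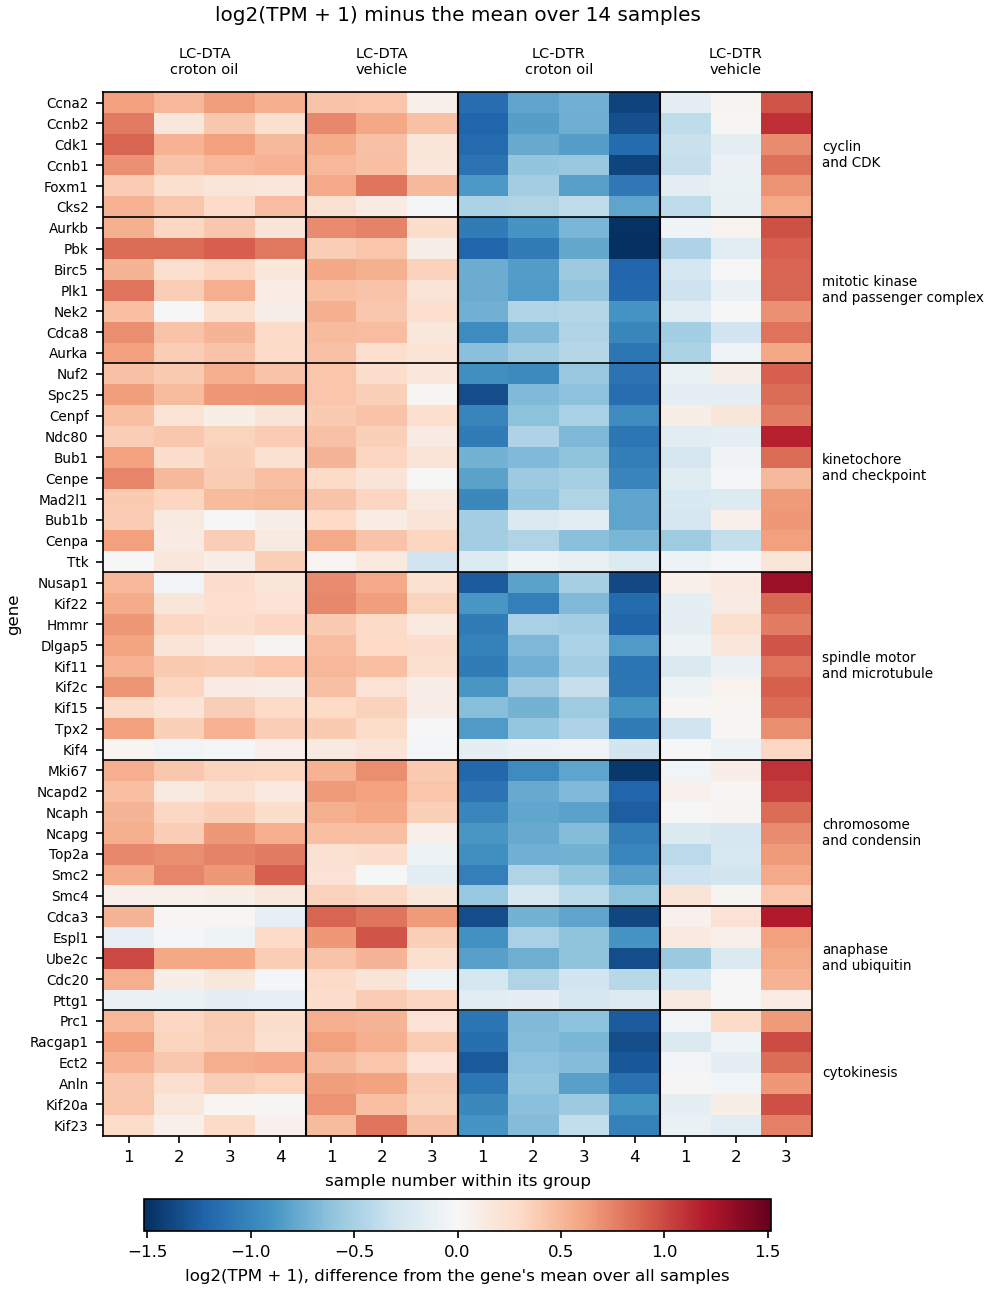
log2(TPM + 1) of each of the 50 genes (rows, grouped by role) in each of the 14 samples (columns, grouped), minus the gene's mean over all samples; red is above that mean and blue below it. The LC-DTR croton oil columns are below the mean and LC-DTR vehicle sample 3 is above it for all 50 genes, and the rows of Ttk, Kif4, Smc4, Cdc20 and Pttg1 are the palest.

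The question asked of LC-DTR ears was what 6 h of irritation changed after recent loss of Langerhans cells. After croton oil 47 of the 50 genes fell, 0 rose and 3 (Cenpa, Ttk and Kif4) were not called, by limma at an adjusted p under 0.05. All 50 differences were below 0, and 49 had an unadjusted p under 0.05. Of all 14693 genes tested, 29.5% were called lower and 22.1% higher in this comparison. The median difference of the 50 was -1.02 on the log2(TPM + 1) scale, against -0.06 over all genes, and 28 genes fell by at least 1 on that scale. Croton oil and vehicle samples did not overlap for 43 genes, and 27.1% of all genes were lower without overlap. Vehicle sample 3 was the lowest of its group for 0 of the 50 genes. The same 43 genes thus had all 4 croton oil samples below both of vehicle samples 1 and 2, which is not a separate result. Without LC-DTR vehicle sample 3, 41 genes fell, 0 rose, and the median was -0.70, with 25.8% of all genes called lower and 18.5% higher in that fit. The 6 genes that lost the call were Aurka, Bub1b, Cdc20, Cdca8, Cks2 and Ube2c. These 6 and Bub1, Ccnb2, Mad2l1, Ncapg, Ndc80, Plk1, Smc2 and Top2a, 14 of the 47 called, had differences over 1.5 times larger with that sample than without it.

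The summed TPM of 8 basal keratinocyte markers moved the same way, at 8229 to 10515 in LC-DTR croton oil samples and 14798 to 16655 in LC-DTR vehicle samples. Of these 8 markers 5 were called lower and 2 higher. Krt5 was at 2069 to 3269 TPM after croton oil and 5733 to 6283 TPM after vehicle. Summed neutrophil markers were at 263 to 771 TPM after croton oil and 26.8 to 70.3 TPM after vehicle. Hair follicle markers summed to 52.6 to 71.6 TPM after croton oil and 90.4 to 114 TPM after vehicle, without overlap, and of the 9 of 21 that passed the filter 5 were called lower and 0 higher. Sebaceous gland markers summed to 2864 to 5012 TPM after croton oil and 4625 to 5449 TPM after vehicle, with overlap, and 2 of 8 were called lower and 0 higher. A list of 8 immature neutrophil genes summed to 8.46 to 37.5 TPM after croton oil and 2.25 to 4.30 TPM after vehicle. Of its 2 genes that passed the filter, Chil3 rose by 3.03 ± 0.49 and Ctsg fell by 0.56 ± 0.17, while the granule genes Mpo and Elane were at 0.730 and 0.104 TPM or below in all 14 samples. The part of these markers in the result was not tested.

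Among the cyclins and the kinase they bind, all 6 genes fell in LC-DTR ears. Cdk1, the kinase that drives entry into mitosis, was at 4.77, 6.65, 6.28 and 4.80 TPM after croton oil, against 9.31, 10.7 and 20.45 TPM after vehicle. It lay lower in every croton oil sample and fell by 1.06 ± 0.21 (SE, log2; adjusted p = 0.000839), or by 0.74 ± 0.15 without vehicle sample 3. Ccnb1, its cyclin B partner, had 5.43, 8.27, 8.38 and 4.35 TPM after croton oil and 9.98, 12.2 and 23.9 TPM after vehicle. Again the groups did not overlap, and the fall was 1.05 ± 0.24 (adjusted p = 0.00285). Ccna2, cyclin A of S phase and early mitosis, had the largest fall of the 6, by 1.31 ± 0.22 (adjusted p = 0.00029). Foxm1, a transcription factor of late cell cycle genes, was at 2.42 to 4.04 TPM after croton oil and 5.54 to 10.6 TPM after vehicle, and fell by 0.97 ± 0.18 (adjusted p = 0.000592). Cks2, a small CDK-binding subunit, had the smallest fall of the group, by 0.56 ± 0.17 (adjusted p = 0.0151), and was not called without vehicle sample 3, at -0.28 ± 0.12 (adjusted p = 0.0689).

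All 7 mitotic kinases and passenger complex genes also fell, and 5 did not overlap between the groups. Pbk, a mitotic kinase, was at 3.94, 4.45, 5.61 and 2.96 TPM after croton oil, against 7.21, 9.06 and 20.1 TPM after vehicle, with no overlap and a fall of 1.22 ± 0.25 (adjusted p = 0.00113). Cdca8, which encodes borealin of the chromosomal passenger complex, overlapped between croton oil (6.16 to 9.34 TPM) and vehicle (8.96 to 24.1 TPM). Its fall of 0.77 ± 0.25 (adjusted p = 0.0171) was not called without vehicle sample 3, at -0.37 ± 0.16 (adjusted p = 0.073). Aurka, the spindle pole kinase Aurora A, also overlapped and fell by 0.69 ± 0.21 (adjusted p = 0.0124), and was not called without that sample, at -0.41 ± 0.17 (adjusted p = 0.0715).

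Kinetochore and checkpoint genes held 2 of the 3 that were not called. Of the 10, 8 fell. One of these, the checkpoint gene Bub1b, overlapped between the groups and fell by 0.58 ± 0.19 (adjusted p = 0.0211). It was not called without vehicle sample 3, at -0.33 ± 0.17 (adjusted p = 0.128), nor without croton oil sample 4, at -0.46 (adjusted p = 0.0662). Cenpe, a kinetochore motor, was at 1.08, 1.48, 1.56 and 0.824 TPM after croton oil and 2.21, 2.61 and 4.14 TPM after vehicle, and fell by 0.82 ± 0.16 (adjusted p = 0.000992). Cenpa, the histone H3 variant of centromeres, was at 11.6, 12.3, 10.7 and 10.3 TPM after croton oil, against 11.6, 13.1 and 27.0 TPM after vehicle. Vehicle sample 1 lay within the croton oil range, sample 2 just above it and sample 3 far above it, and the difference of -0.48 ± 0.21 missed the threshold (adjusted p = 0.0724), and was -0.13 ± 0.13 without sample 3. Ttk, the checkpoint kinase MPS1, was at 14.4, 16, 15.4 and 14.4 TPM after croton oil and 15.9, 16.6 and 19.2 TPM after vehicle. The Ttk groups overlapped, with a difference of -0.18 ± 0.11 (adjusted p = 0.19).

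Spindle motors and microtubule proteins fell in 8 of 9 cases. Kif11, the motor that pushes spindle poles apart, was at 3.21, 4.30, 5.10 and 3.10 TPM after croton oil, against 6.56, 7.31 and 14.5 TPM after vehicle, a fall of 1.03 ± 0.21 (adjusted p = 0.000998). Kif22, a chromosome-arm motor, was at 2.98 to 4.59 TPM after croton oil and 7.11 to 15.2 TPM after vehicle, and fell by 1.22 ± 0.20 (adjusted p = 0.00023). The gene that was not called was Kif4, a chromosome-bound kinesin, at 7.34 ± 0.57 TPM after croton oil and 8.78 ± 1.46 TPM after vehicle (SD, 4 and 3 samples). Of the exon bases of Kif4, 15.1% are shared with Pdzd11 on the opposite strand. Nusap1, a spindle-bundling protein, fell by 1.49 ± 0.27 (adjusted p = 0.000566). Aurka, Bub1b, Ube2c, Kif4, Nusap1, Cdca3, Espl1 and Ndc80, and genes named only for how they moved between settings, were named after their values were seen.

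Chromosome and condensin genes all fell, 7 of 7. Mki67, which encodes the Ki-67 protein that coats mitotic chromosomes and is the usual stain for dividing cells, was at 5.02, 6.10, 6.86 and 3.98 TPM after croton oil and 12.4, 13.7 and 28.3 TPM after vehicle. Every croton oil sample lay below every vehicle sample, by 1.49 ± 0.22 (adjusted p = 0.000126), or 1.13 ± 0.15 without vehicle sample 3. Top2a, the topoisomerase that untangles sister chromatids, was at 10.9, 12.8, 12.9 and 10.5 TPM after croton oil, against 16.2, 18.3 and 34.5 TPM after vehicle. It fell by 0.84 ± 0.19 (adjusted p = 0.00211), and by 0.52 ± 0.11 without vehicle sample 3. Smc2, a core condensin subunit, was at 4.42, 7.08, 6.41 and 5.26 TPM after croton oil and 7.94, 8.15 and 15.5 TPM after vehicle. The Smc2 fall was 0.72 ± 0.20 (adjusted p = 0.00759), or 0.43 ± 0.15 without vehicle sample 3. Smc4, its partner in condensin and the most abundant of the group, was at 22.7 to 29.3 TPM after croton oil and 36.6 to 47.8 TPM after vehicle, a fall of 0.69 ± 0.10 (adjusted p = 8.2e-05).

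Anaphase and ubiquitin genes held both the largest and one of the smallest falls. Cdca3, which takes part in protein turnover at entry into mitosis, was at 5.90, 9.72, 9.05 and 5.75 TPM after croton oil and 17.3, 19.4 and 39.2 TPM after vehicle. It fell by 1.55 ± 0.25 (adjusted p = 0.000203), the largest fall of the 50. Pttg1, or securin, which restrains the cohesin-cutting enzyme separase, was at 23.1, 23.7, 21.8 and 22.5 TPM after croton oil, against 28.9, 26.0 and 28.4 TPM after vehicle. Its groups did not overlap, its samples were close together, and it fell by 0.27 ± 0.06 (adjusted p = 0.00155). Cdc20, the activator of the anaphase promoting complex, was at 19.4, 16.9, 19.2 and 17.3 TPM after croton oil and 19.4, 23.4 and 34.4 TPM after vehicle. The Cdc20 groups met at 19.4 TPM, and the fall of 0.44 ± 0.17 (adjusted p = 0.0414) was not called when any croton oil sample or vehicle sample 2 or 3 was left out, with adjusted p between 0.0521 and 0.245. It was not called with median ratio scaling either, at -0.38 (adjusted p = 0.0906). Ube2c, which carries ubiquitin to the anaphase promoting complex, fell by 0.80 ± 0.23 (adjusted p = 0.0107) and was not called without vehicle sample 3, at -0.48 ± 0.20 (adjusted p = 0.0606).

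All 6 cytokinesis genes fell. Prc1, which bundles the microtubules of the central spindle, was at 6.95, 9.80, 10.1 and 6.14 TPM after croton oil, against 15.7, 19.9 and 25.7 TPM after vehicle, with a fall of 1.21 ± 0.17 (adjusted p = 8.45e-05). Anln, the actin-binding anillin of the contractile ring, was at 6.37 to 9.76 TPM after croton oil and 14.7 to 24.5 TPM after vehicle, and fell by 1.12 ± 0.16 (adjusted p = 0.000102). Some of these genes share exon bases with a neighbour on the opposite strand, so that their reads could be mixed unless counted by strand, which the sources used here do not state. The largest shares were 29.3% for Kif20a, 22.8% for Ube2c, 15.1% for Kif4, 13.4% for Ncapg, 12.5% for Ccna2 and 11.1% for Prc1. Pseudogenes named after Ccnb1, Ccnb2, Kif22 and Kif4 are annotated too, and reads could be split with them.

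In LC-DTA ears, in which Langerhans cells are missing long term, the same treatment called few of these genes. Smc2 and Top2a rose, Cdca3, Espl1 and Pttg1 fell, and 45 were not called. Of all genes tested, 24.2% were called higher and 34.5% lower, and the 2 and 3 of 50 called here lie below that background. The median difference of the 50 was 0.03 on the log2(TPM + 1) scale, against -0.09 over all genes. With median ratio scaling 5 of the 50 were called higher and 2 lower, and the split of all genes became 4388 higher and 4112 lower, in place of 3552 and 5067. The SE behind the calls of the main fit uses the spread of all 4 groups, LC-DTR vehicle sample 3 included. With only the LC-DTA samples in the fit 7 rose and 8 fell, and of all genes 3736 rose and 5347 fell. The SE of Pbk, Cks2 and Foxm1 was then 0.09, 0.08 and 0.10, in place of 0.25, 0.17 and 0.18, and all 3 were called. A gene not called in the main fit is therefore not shown to be unchanged. Without croton oil samples 3 and 4 of this genotype 0 rose and 2 fell.

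**Figure D3:**
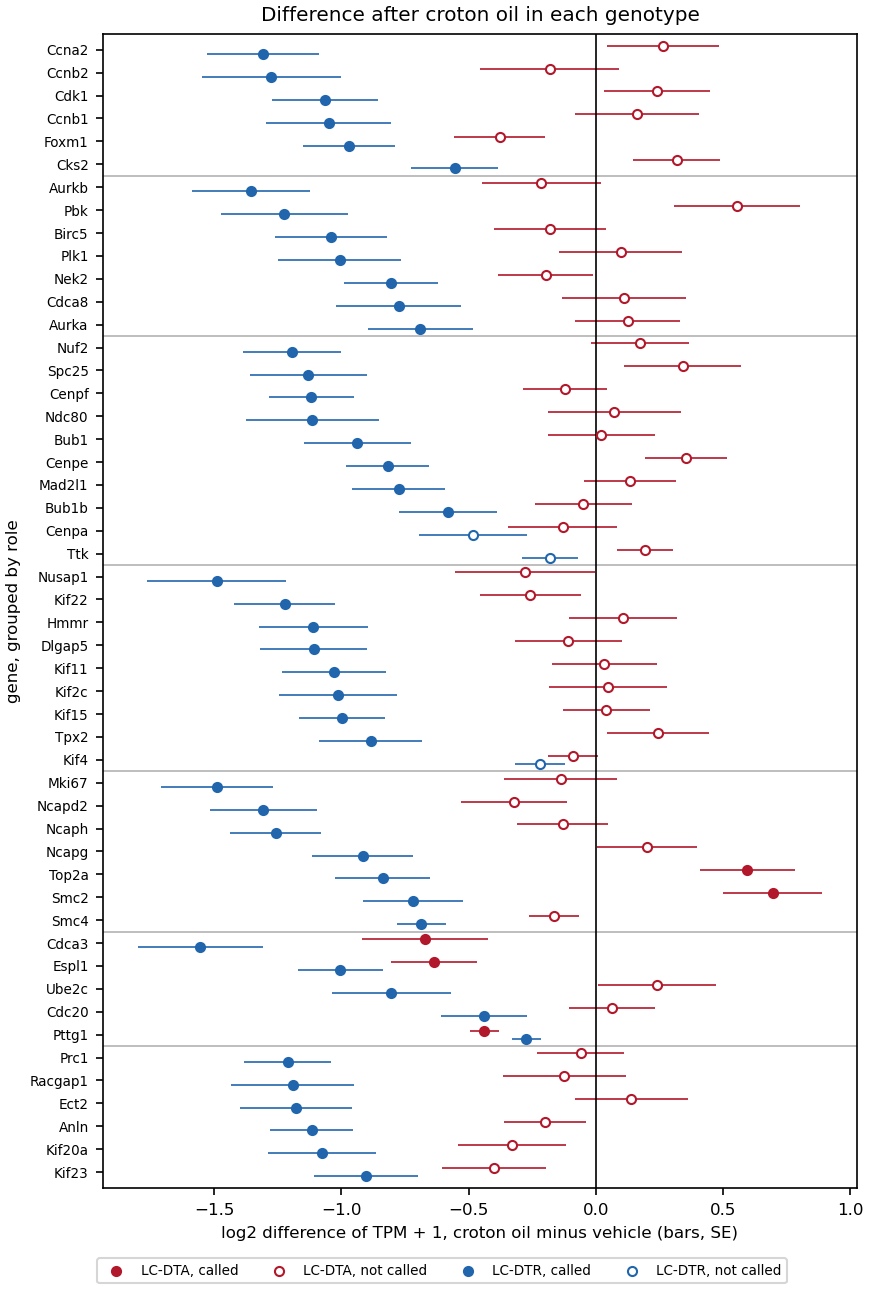
log2 difference of TPM + 1, croton oil minus vehicle, for each of the 50 genes (rows, grouped by role as in the heat map of all samples) in LC-DTA (red) and LC-DTR ears (blue). Points are the fitted difference, bars its SE, and filled points passed the adjusted p of 0.05; the blue points are all below 0, down to -1.55, and the red points lie between -0.67 and 0.69.

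Both genes that rose in LC-DTA ears act on chromosomes. Smc2 was at 15.3, 17.6, 16.5 and 19.8 TPM in LC-DTA croton oil samples, against 11.9, 10.1 and 8.97 TPM in LC-DTA vehicle samples. The Smc2 groups did not overlap, and the rise was 0.69 ± 0.20 (adjusted p = 0.00776). Top2a was at 36.8, 36.0, 37.2 and 37.9 TPM after croton oil and 25.7, 26.5 and 20.6 TPM after vehicle, again without overlap, and rose by 0.59 ± 0.19 (adjusted p = 0.014). Neither was called without croton oil samples 3 and 4, at adjusted p of 0.053 for Smc2 and 0.0679 for Top2a, and Top2a was not called without vehicle sample 3 (adjusted p = 0.0678). Smc4, the condensin partner of Smc2, was at 37.7, 37.6, 38.0 and 40.0 TPM after croton oil and 45.5, 44.4 and 39.7 TPM after vehicle. Smc4 thus showed no rise beside Smc2, with a difference of -0.17 ± 0.10 (adjusted p = 0.156).

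The 3 genes that fell all belong to the anaphase and ubiquitin group of 5. Cdca3 was at 24.0, 16.8, 16.8 and 15.0 TPM in LC-DTA croton oil samples and 31.2, 29.8 and 26.4 TPM in LC-DTA vehicle samples, a fall of 0.67 ± 0.25 (adjusted p = 0.0312). The Cdca3 call was lost without croton oil sample 2, 3 or 4 or vehicle sample 1 or 2, with median ratio scaling, with no filter and with the replicate block, at differences of -0.58 to -0.67 and adjusted p of 0.0527 to 0.0884, and without croton oil samples 3 and 4 together (adjusted p = 0.185). Espl1, which encodes separase, was at 7.40, 8.05, 7.77 and 10.2 TPM after croton oil and 13.4, 16.7 and 10.8 TPM after vehicle, a fall of 0.64 ± 0.17 (adjusted p = 0.00534). Pttg1 was at 24.5, 24.4, 23.6 and 24.0 TPM after croton oil, against 31.6, 34.5 and 33.1 TPM after vehicle, a fall of 0.44 ± 0.06 (adjusted p = 3.26e-05). In all 3 every croton oil sample lay below every vehicle sample, and these genes fell in LC-DTR ears too. The remaining 2 of the group were not called, with differences of 0.24 for Ube2c and 0.06 for Cdc20.

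Among genes not called in LC-DTA ears, Pbk was at 19.3, 19.4, 20.3 and 18.7 TPM after croton oil and 13.7, 14.1 and 11.0 TPM after vehicle, without overlap, at 0.55 ± 0.25 (adjusted p = 0.0691). It was called with median ratio scaling, at 0.64 (adjusted p = 0.0423). Cdk1 was at 23.02, 17.8, 19.1 and 17.4 TPM after croton oil and 18.2, 16.7 and 13.8 TPM after vehicle, at 0.24 ± 0.21 (adjusted p = 0.337). Mki67 was at 19.1, 17.2, 16.3 and 16.2 TPM after croton oil and 18.8, 21.4 and 17.0 TPM after vehicle, at -0.14 ± 0.22 (adjusted p = 0.613). For both, the groups overlapped. Basal keratinocyte markers summed to 11314 to 13309 TPM in LC-DTA croton oil samples and 14065 to 14169 TPM in LC-DTA vehicle samples, with 3 of 8 called higher and 4 lower, and their part in the result was not tested. Hair follicle markers summed to 38.5 to 50.9 TPM after croton oil and 69.3 to 86.1 TPM after vehicle, without overlap, with 0 of 9 called higher and 4 lower, and their part was not tested either.

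**Figure D4:**
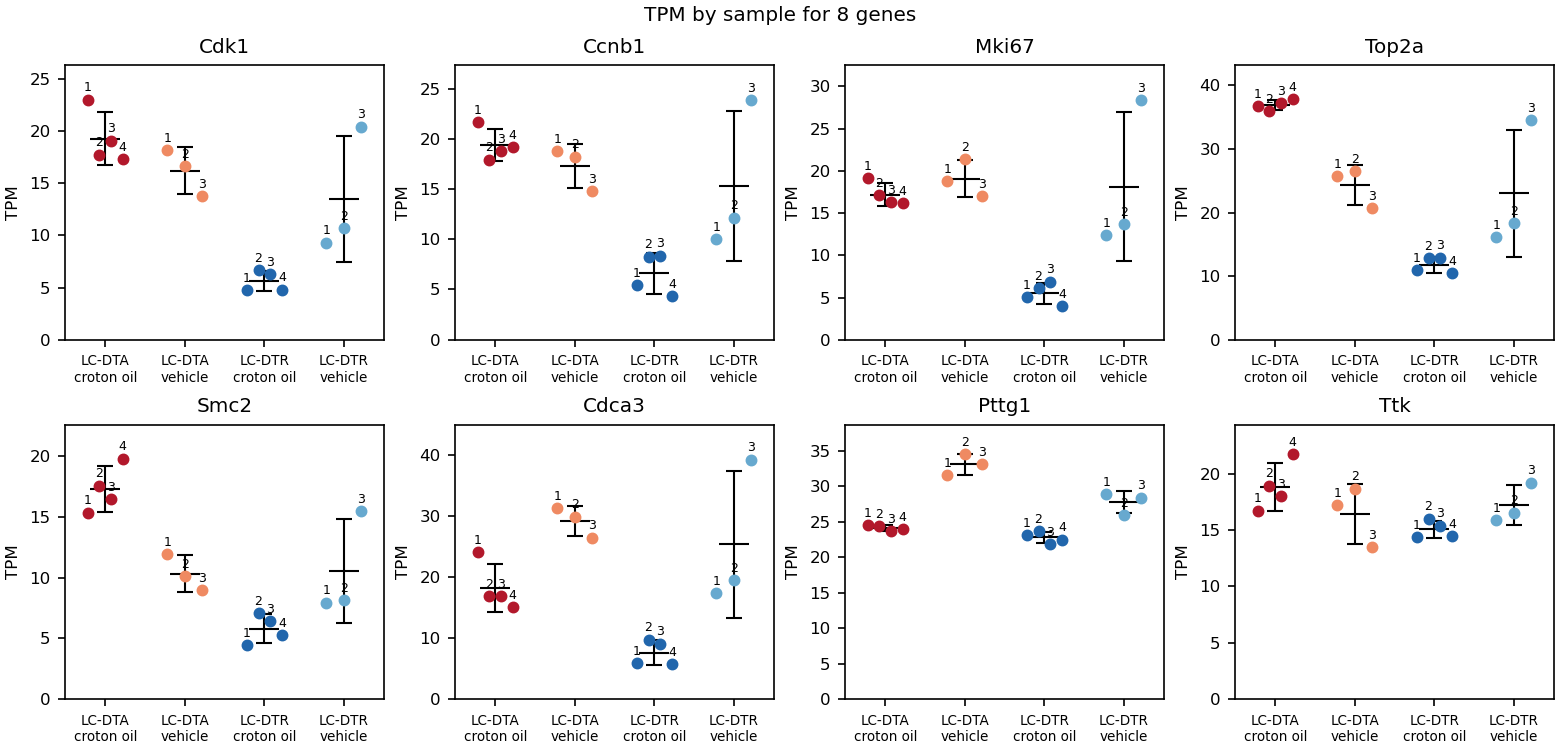
TPM by sample for Cdk1, Ccnb1, Mki67, Top2a, Smc2, Cdca3, Pttg1 and Ttk in LC-DTA croton oil, LC-DTA vehicle, LC-DTR croton oil and LC-DTR vehicle ears (points, numbered by sample; black, mean and SD). Top2a stands at 36.0 to 37.9 TPM in LC-DTA croton oil samples and 10.5 to 12.9 TPM in LC-DTR croton oil samples, while Pttg1 and Ttk show the narrowest spread between groups.

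Between the genotypes after croton oil, 48 of the 50 genes were higher in LC-DTA than in LC-DTR ears, 0 were lower, and Kif4 and Pttg1 were not called. All 50 differences were above 0. The genotypes also differed in toxin treatment and in how long Langerhans cells had been lost, which cannot be told apart from genotype. The background was 34.3% of all genes called higher and 18.0% lower, or 3686 higher and 3709 lower with median ratio scaling in place of 5041 and 2647. The median difference was 1.21 (log2), against 0.09 over all genes, and 36 genes differed by at least 1. The groups did not overlap for 49 genes, Pttg1 being the exception, and 29.6% of all genes were higher in LC-DTA ears without overlap. The difference itself uses no vehicle sample, but its SE and p rest on a spread taken from all 14 samples. With only the 2 croton oil groups in the fit 48 genes were called. Leaving out 1 croton oil sample at a time gave 46 to 48 called genes.

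The largest difference after croton oil was that of Pbk, at 19.4 ± 0.66 TPM in LC-DTA and 4.24 ± 1.10 TPM in LC-DTR ears (SD, 4 samples each), or 1.99 ± 0.23 (log2; adjusted p = 1.94e-05). Cdk1 averaged 19.3 ± 2.59 TPM in LC-DTA and 5.62 ± 0.98 TPM in LC-DTR ears, a difference of 1.62 ± 0.19 (adjusted p = 2.21e-05). Top2a averaged 37.0 ± 0.79 TPM in LC-DTA and 11.8 ± 1.25 TPM in LC-DTR ears, a difference of 1.58 ± 0.17 (adjusted p = 1.29e-05). By role the median difference was highest for the cyclin and CDK group, at 1.44, and lowest for the anaphase and ubiquitin group, at 0.75. At the low end stood Cdc20 at 0.56 ± 0.16 (adjusted p = 0.00851), Ttk at 0.30 ± 0.10 (adjusted p = 0.0235) and Pttg1 at 0.08 ± 0.05 (adjusted p = 0.225). The Ttk call was lost with median ratio scaling, at 0.21 (adjusted p = 0.0824), and with quantile normalization, at 0.18 (adjusted p = 0.142). It was also lost without LC-DTA croton oil sample 2 or 4 or LC-DTR croton oil sample 1 or 4, at adjusted p of 0.0503 to 0.0772. Without LC-DTA croton oil samples 3 and 4 together it was lost too (adjusted p = 0.153). Bub1b lost its call with quantile normalization (adjusted p = 0.101) and without LC-DTR croton oil sample 4 (adjusted p = 0.0511). In the same samples the sum of 8 fibroblast markers was 4851 to 6464 TPM in LC-DTA and 2370 to 3451 TPM in LC-DTR ears, with 6 of 8 called higher and 0 lower. The sum of 8 basal keratinocyte markers was 11314 to 13309 TPM in LC-DTA and 8229 to 10515 TPM in LC-DTR ears. Of these 8, however, 2 were called higher and 2 lower, and their median difference was 0.10, against 0.09 over all genes. Their part in the result was not tested.

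Under vehicle 1 of these genes was called between the genotypes, and the count turned on LC-DTR vehicle sample 3. The gene called was Pttg1, at 31.6, 34.5 and 33.1 TPM in LC-DTA and 28.9, 26.0 and 28.4 TPM in LC-DTR ears, higher in LC-DTA by 0.25 ± 0.06 (adjusted p = 0.012), and 0 genes were lower. By limma 3 of the 50 had an unadjusted p under 0.05. The background was 19.1% called higher and 5.34% lower, or 1728 higher and 1711 lower with median ratio scaling in place of 2810 and 785. That scaling moved the median of all genes by -0.11 (log2), brought the median of the 50 to 0.08 from 0.18 as deposited, and left Pttg1 at 0.13 (adjusted p = 0.127). The Pttg1 call was also lost without LC-DTA vehicle sample 2 or LC-DTR vehicle sample 2, at adjusted p of 0.0542 and 0.0659.

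Without LC-DTR vehicle sample 3, 26 of the 50 genes were called higher in LC-DTA than in LC-DTR ears under vehicle, 0 were lower, and the median was 0.49. In that fit 18.5% of all genes were called higher and 6.68% lower. Cenpa was then higher by 0.89 ± 0.14 (adjusted p = 0.0009), with 26.1, 23.6 and 21.7 TPM in LC-DTA and 11.6 and 13.1 TPM in the remaining LC-DTR vehicle samples, while sample 3 had 27.0 TPM. Cdca8 was then higher by 0.78 (adjusted p = 0.00507) and Foxm1 by 0.74 (adjusted p = 0.00324). Fibroblast markers also differed between the vehicle groups, summing to 7476 to 9319 TPM in LC-DTA and 2312 to 5213 TPM in LC-DTR ears, and their part in the result was not tested.

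The difference between the genotypes' responses to croton oil was tested directly, as the LC-DTA difference minus the LC-DTR difference. It was called above 0 for 34 of the 50 genes and below 0 for 0 by limma, and 16 were not called. By sign alone it was above 0 for 49 genes and below 0 for 1. The background was 10.5% of all genes called above 0 and 12.6% below, and 43 of the 50 had an unadjusted p under 0.05. The median was 1.04 (log2), against -0.02 over all genes, and 27 genes were at 1 or more. Without LC-DTR vehicle sample 3 the count was 29 and the median 0.71, with 9.21% of all genes called above 0 in that fit. The 5 genes that lost the call were Kif2c, Nusap1, Plk1, Racgap1 and Ube2c. Bub1, Ncapd2, Ndc80 and Racgap1, 4 of the 34 called, had differences over 1.5 times larger with that sample than without it. The count was 43 without LC-DTR vehicle sample 1 and 19 without LC-DTA vehicle sample 3. Without LC-DTA croton oil samples 3 and 4 it was 23. Among genes named by the rule, Cks2, Ccnb1, Kif11 and Kif22 lost this call without LC-DTA vehicle sample 3, at adjusted p of 0.05003 to 0.0677. Ccnb1, Kif11, Kif22 and Smc4 lost it without LC-DTA croton oil samples 3 and 4, at adjusted p of 0.0504 to 0.0594.

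Pbk had the largest difference of responses, 1.78 ± 0.35 (adjusted p = 0.00373), and kept 1.37 ± 0.22 without LC-DTR vehicle sample 3 (adjusted p = 0.00202). Ccna2 followed at 1.57 ± 0.31 (adjusted p = 0.0037). Top2a, at 1.43 ± 0.26 (adjusted p = 0.00255), and Smc2, at 1.41 ± 0.28 (adjusted p = 0.00362), were called in opposite directions in the genotypes. Cenpe was at 1.17 ± 0.23 (adjusted p = 0.00367). Mki67, Cdk1 and Ccnb1 had values of 1.35, 1.30 and 1.21, all called in the fit of all samples. Of the genes not called, Foxm1 was at 0.59 ± 0.25 (adjusted p = 0.107), Cdc20 at 0.50 ± 0.24 (adjusted p = 0.141), Cenpa at 0.35 ± 0.30 (adjusted p = 0.42) and Pttg1 at -0.16 ± 0.08 (adjusted p = 0.162). For Cenpa the value without LC-DTR vehicle sample 3 was -0.01 ± 0.18. In the fit of all samples 7 of 7 chromosome and condensin genes were called. Of these, Ncapd2 lost the call without LC-DTA vehicle sample 2 or 3, LC-DTA croton oil sample 1 or LC-DTR croton oil sample 1 or 4, and with no filter. Ncapd2 and Smc4 both lost it without LC-DTA croton oil samples 3 and 4 together. Of 5 anaphase and ubiquitin genes 1 was called, Ube2c, at 1.05 ± 0.33 (adjusted p = 0.0349), and it was not called without LC-DTR vehicle sample 3, at 0.72 ± 0.26 (adjusted p = 0.068), among other samples.

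Other genes of the cell cycle were read from lists that hold none of the 50. Of 62 further mitosis genes, 6 rose, 8 fell and 48 were not called in LC-DTA ears after croton oil, with a median of 0.01 (log2). In LC-DTR ears 3 of them rose, 52 fell and 7 were not called, with a median of -0.70. Without LC-DTR vehicle sample 3, 46 fell, against 25.8% of all genes in that fit. Of all genes, 24.2% were called higher and 34.5% lower in LC-DTA ears, and 22.1% higher and 29.5% lower in LC-DTR ears. The list's difference of responses was called above 0 for 34 and below 0 for none by limma, against 10.5% and 12.6% of all genes. Ska2, of the kinetochore's outer complex, averaged 4.52 ± 0.41 TPM after croton oil and 9.13 ± 1.07 TPM after vehicle in LC-DTR ears (SD, 4 and 3 samples), and fell by 0.87 ± 0.09 (adjusted p = 1.07e-05). Against the majority, Zwint, a kinetochore protein, rose in LC-DTA ears by 0.30 and in LC-DTR ears by 0.47 ± 0.07 (adjusted p = 0.000131). The importin Kpna2 rose in LC-DTA ears by 0.43 and in LC-DTR ears by 0.23, and the centromere gene Cenpt rose in LC-DTR ears by 0.16. Mis12, another kinetochore gene, averaged 27.0 ± 1.11 TPM after croton oil and 18.1 ± 1.98 TPM after vehicle in LC-DTA ears, a rise of 0.56 ± 0.09 (adjusted p = 0.00019). In LC-DTR ears it averaged 15.0 ± 1.93 TPM after croton oil and 19.8 ± 0.15 TPM after vehicle, a fall of 0.39 ± 0.09 (adjusted p = 0.00325).

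The counts for the next lists are set against all genes, of which 24.2% were called higher and 34.5% lower in LC-DTA ears, and 22.1% higher and 29.5% lower in LC-DTR ears. Regulators of entry into mitosis were called in both directions, with 5 of 18 higher and 2 lower in LC-DTA ears and 3 higher and 9 lower in LC-DTR ears. Cdc25b, a phosphatase that activates CDK1, fell by 0.66 ± 0.17 in LC-DTA and by 1.35 ± 0.17 in LC-DTR ears. Wee1, the kinase that restrains CDK1, fell by 1.22 ± 0.16 in LC-DTA and by 1.15 ± 0.16 in LC-DTR ears, so an activator and an inhibitor of CDK1 fell in both. The stress-responsive Plk2 rose in both, by 0.61 in LC-DTA and 0.92 in LC-DTR ears. Plk3 was not called in LC-DTA ears, at 0.19, and rose by 0.86 ± 0.12 in LC-DTR ears (adjusted p = 0.000104). Subunits and partners of the anaphase promoting complex were called at shares near those of all genes in LC-DTA ears, with 4 of 16 higher and 6 lower in LC-DTA ears, 2 higher and 7 lower in LC-DTR ears, and no difference larger than 0.57 in size.

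Transcription factors of the E2F, B-Myb and DREAM group were called in both directions, at shares mostly near those of all genes, with 10 of 22 higher and 7 lower in LC-DTA and 6 higher and 7 lower in LC-DTR ears. E2f1, which activates genes of the G1/S transition, averaged 2.003 ± 0.44 TPM after croton oil and 7.35 ± 1.45 TPM after vehicle in LC-DTR ears, a fall of 1.47 ± 0.12 (adjusted p = 1.97e-06). Rbl1, the pocket protein p107 of DREAM, fell by 1.25 ± 0.11 and E2f2 by 1.88 ± 0.18 there. Mybl2, which encodes B-Myb, was not called in LC-DTA ears, at -0.12, and fell by 0.74 ± 0.14 in LC-DTR ears. The NF-Y subunit gene Nfyb rose in both, by 0.81 in LC-DTA and 0.47 in LC-DTR ears. Of 8 G1 cyclins and CDKs, 2 fell and 3 rose in LC-DTA ears, and 6 fell and 1 rose in LC-DTR ears. Ccnd1, cyclin D1, was not called in LC-DTA ears, at -0.17, and fell by 1.05 ± 0.18 in LC-DTR ears.

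Of the CDK inhibitors 7 of 8 passed the filter. In LC-DTA ears 2 of the 7 rose and 4 fell (median -0.67), and in LC-DTR ears 1 rose and 4 fell (median -0.34). Cdkn1a, which encodes p21, stood out by level and rose against most of the list. It averaged 488 ± 26.5 TPM after croton oil and 336 ± 28.4 TPM after vehicle in LC-DTA ears, a rise of 0.54 ± 0.09 (adjusted p = 0.000185). In LC-DTR ears it averaged 685 ± 22.8 TPM after croton oil and 351 ± 53.7 TPM after vehicle, a rise of 0.97 ± 0.09 (adjusted p = 3.47e-06). The difference of responses for Cdkn1a was -0.43 ± 0.13 (adjusted p = 0.0249). Cdkn1b, or p27, fell in both genotypes, by 1.10 ± 0.12 in LC-DTA and 0.54 ± 0.12 in LC-DTR ears. Of 30 DNA replication genes, which act before mitosis, 9 were higher and 3 lower in LC-DTA ears, and 1 was higher and 27 lower in LC-DTR ears. Mcm2 of the replicative helicase fell by 1.85 ± 0.11 in LC-DTR ears, and its difference of responses was 2.22 ± 0.15.

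**Figure D5:**
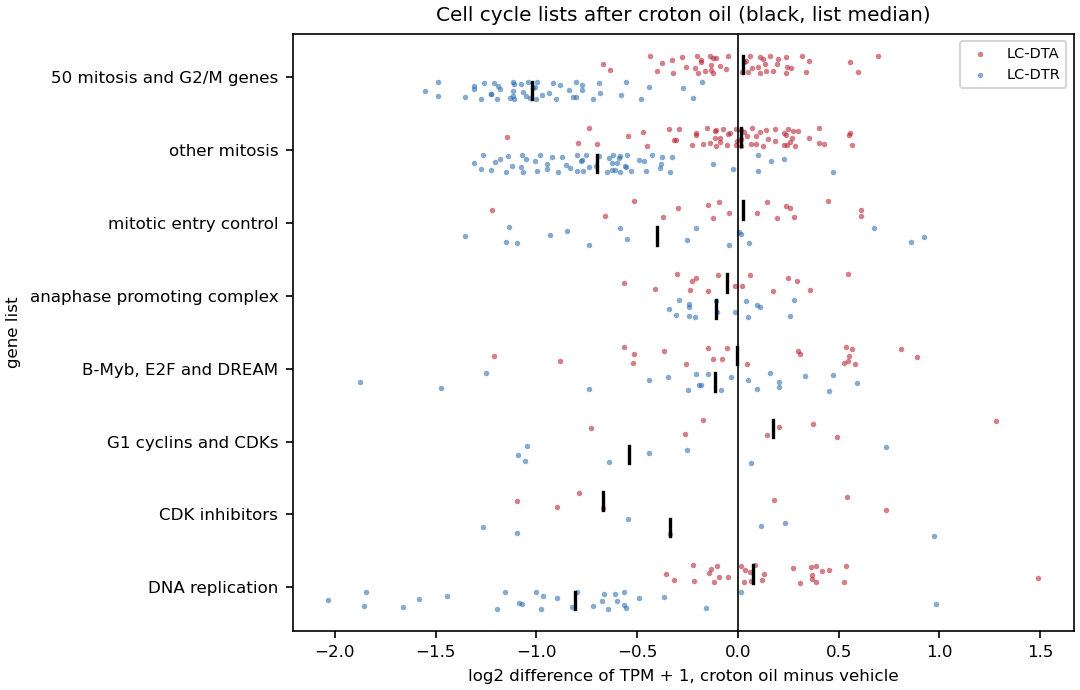
log2 difference of TPM + 1, croton oil minus vehicle, for each tested gene (points) of the 50 mitosis and G2/M genes and of 7 other cell cycle lists, in LC-DTA (red) and LC-DTR ears (blue), with list medians in black. The medians of the 50 are 0.03 in LC-DTA and -1.02 in LC-DTR ears, and those of the 62 further mitosis genes 0.01 and -0.70.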

How the data were processed

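Gene expression was measured in 14 whole ear samples. Per the labels' protocols, a Qiagen RNeasy kit gave the RNA and libraries came from the TruSeq Stranded mRNA kit of Illumina. Per the submitters' processing notes, the tools were HISAT2, cutadapt, featureCounts and Subread, with the mm10 build, and neither versions nor the way TPM were computed are given in the sources used here. The values are TPM as deposited by the authors, summing to 1000000 in each sample over 24062 rows. The 27 rows whose names were dates, with 0.124 to 0.145% of each total, were not used. Samples were grouped by the labels, and no 2 samples were identical.

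Values were transformed to log2(TPM + 1), a scale on which genes of low TPM show less than their true change. Genes with at least 1 TPM in at least 3 samples (14693, with 9342 below) entered 1 linear model of the 4 groups and 14 samples, fitted by limma 3.58.1 (R 4.3.3) with its trend option. The p-values, two-sided, carry the Benjamini-Hochberg adjustment over all tested genes of a comparison, with 0.05 as the threshold for a call. The design was written for TPM, and the fit was tested on simulated data. Summaries used pandas 2.3.3 under Python 3.11.15, and plots matplotlib 3.10.9. Gene positions and shared exon bases are from GENCODE M21 on GRCm38, and promoter sequences from RefSeq.

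The 50 genes, the roles, the lists and the tests were chosen with earlier results of these data known. Genes were named by a rule: the 2 of highest mean TPM in each role, Mki67, Top2a, Cdk1, Ccnb1, Foxm1 and Pttg1 always, called genes that moved against the majority, the 5 called with the lowest p in the difference of responses, and up to 4 called with the lowest p from each other list. Other genes named from these lists were named after their values were seen. A protein motif search was planned and not run, as no protein sequences were used here. Alternative settings were a pseudocount of 0.1 or 5, a 5 TPM filter or none, scaling by median ratios or quantiles, limma's trend off or robust option on, a block for the replicate number, a fit of the compared groups alone, and samples left out singly or, within a croton oil group, as a pair.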

Additional observations from a re-analysis of the deposited data

Results flagged for a closer look

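In 14 of the genes named by the rule, the response to croton oil differed between LC-DTA and LC-DTR ears by the test of the difference itself. The values, LC-DTA minus LC-DTR on the log2(TPM + 1) scale, were 1.78 for Pbk, 1.57 for Ccna2, 1.43 for Top2a, 1.41 for Smc2, 1.35 for Mki67, 1.30 for Cdk1, 1.21 for Ccnb1, 1.17 for Cenpe, 1.15 for Prc1, 1.06 for Kif11, 0.96 for Kif22, 0.92 for Anln, 0.87 for Cks2 and 0.52 for Smc4. All 14 were positive, and the genes share samples and move together, so these are not 14 separate findings. The rule named Cenpe and Ccna2 by their low p in this same test, so the count of 14 is partly set by selection. Smc2 was named for its rise in LC-DTA ears, which also enters this difference. Of the 50 genes 34 were called above 0, against 10.5% of all genes tested. Cks2, Ccnb1, Kif11, Kif22 and Smc4 lost the call in some fits that left samples out.

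Among the 4 LC-DTA croton oil samples, Kif22 was at 12.2 TPM in sample 1, far above the 9.10 to 9.59 TPM of the others. Smc4 was at 40.0 TPM in sample 4, against 37.6 to 38.0 TPM in the others. Hmmr, a spindle protein named after its values were seen, was at 6.75 TPM in sample 1 against 4.90 to 5.14 TPM. These were the 3 genes of 50 with a sample that far from the rest of this group, and there were 0 of 50 in the LC-DTR croton oil group. Chance gives such a sample in about 1 in 20 groups.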

How the results depend on the processing

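Samples were left out 1 at a time, from the compared groups only. This gave 4 to 5 called genes of the 50 for croton oil in LC-DTA (5 as reported) and 41 to 48 for croton oil in LC-DTR (47). It gave 46 to 48 for the genotypes after croton oil (48), 0 to 26 for the genotypes under vehicle (1) and 19 to 43 for the difference of responses (34). LC-DTR vehicle sample 3, which enters the shared spread, was never left out singly for croton oil in LC-DTA or for the genotypes after croton oil. With only the compared groups in the fit, 15 were called for croton oil in LC-DTA and 0 for the genotypes under vehicle, and this setting gives no value for the difference of responses. Without LC-DTA croton oil samples 3 and 4, 2 were called for croton oil in LC-DTA. Those samples carry label numbers 10796 and 10797, against 10601 and 10602 for samples 1 and 2 of the group. Without LC-DTR croton oil samples 2 and 3, 46 were called for croton oil in LC-DTR. The counts were then 48 for the genotypes after croton oil and 37 for the difference of responses. Median ratio scaling and quantile normalization each left 0 for the genotypes under vehicle, and 34 and 35 for the difference of responses. With no filter the difference of responses was called for 26 genes. For the named genes no difference that was called changed sign. Of 1935 gene values under an alternative, 39 lost a call, 28 gained one, and the other 1868 stayed on their side of the threshold. The replicate numbers were not shown to pair samples: the deviations of the 19 same-numbered pairs correlated between -0.315 and 0.126, with 2 above 0.1. With the number as a replicate block, the counts were 5, 45, 48, 1 and 32 in the order above. Depth is unknown, and 6 of the 700 values of these genes were under 1 TPM, where the log2(TPM + 1) scale is least sensitive.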
